A study of Brassica rapa with 9 samples.

Results

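At 94 genes of Brassica rapa, the non-transgenic replicates did not stand together: NT replicate 3 fell on the side of plants carrying Arabidopsis phytochrome B, and NT replicates 1 and 2 on the side of plants carrying the G564E form. They were chosen from 41020 gene IDs by their values in all 9 libraries, with normalised counts (read counts divided by a median-of-ratios size factor). The AtPHYB side was defined as NT replicate 3 and the 3 AtPHYB libraries, and the G564E side as NT replicates 1 and 2 and the 3 G564E libraries. A gene was taken when its lowest normalised count on one side was at least 50 and at least 3 times the highest on the other. Of the 94 genes, 52 were high on the AtPHYB side and 42 on the G564E side. They made up 0.457% of the 20574 genes with at least 50 normalised counts in every library of a side. Because these values chose the genes, the split itself is a description and carries no test.

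The libraries came from whole seedlings of the cultivar Chiifu, grown for 2 weeks on 1/2-strength Murashige and Skoog medium with 0.5% sucrose under what the labels abbreviate as LD, without a heat treatment. NT was non-transgenic Kimchi cabbage, AtPHYB carried Arabidopsis thaliana phytochrome B, and G564E carried that receptor with glycine 564 changed to glutamate. Each genotype had 3 libraries. The sources used here do not give the promoter of the transgenes, the number of transgenic lines, or whether replicates were single plants or pools. The p-values therefore reflect variation among these libraries, part of which may be technical. Phytochrome B is the main red-light receptor of light-grown plants; in its active form it enters the nucleus and promotes the turnover of transcription factors that drive stem elongation. In Arabidopsis the G564E change is known from a mutant with stronger phytochrome B signalling. Chiifu is the cultivar behind the reference genome of the species, whose ancient genome triplication left many genes in several similar copies.

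Libraries held 15262884 to 20998541 counts. The files give IDs without names, and none of the 94 IDs was found in a RefSeq gene table of the assembly CAAS_Brap_v3.01, so genes are described by ID, level and ID number, and neither tissue markers nor the transgene could be checked. RNA came from whole seedlings, where fewer cells of a type and less RNA per cell cannot be told apart. Reads shared between near-identical copies, overlapping genes and antisense partners could not be separated either.

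**Figure D1:**
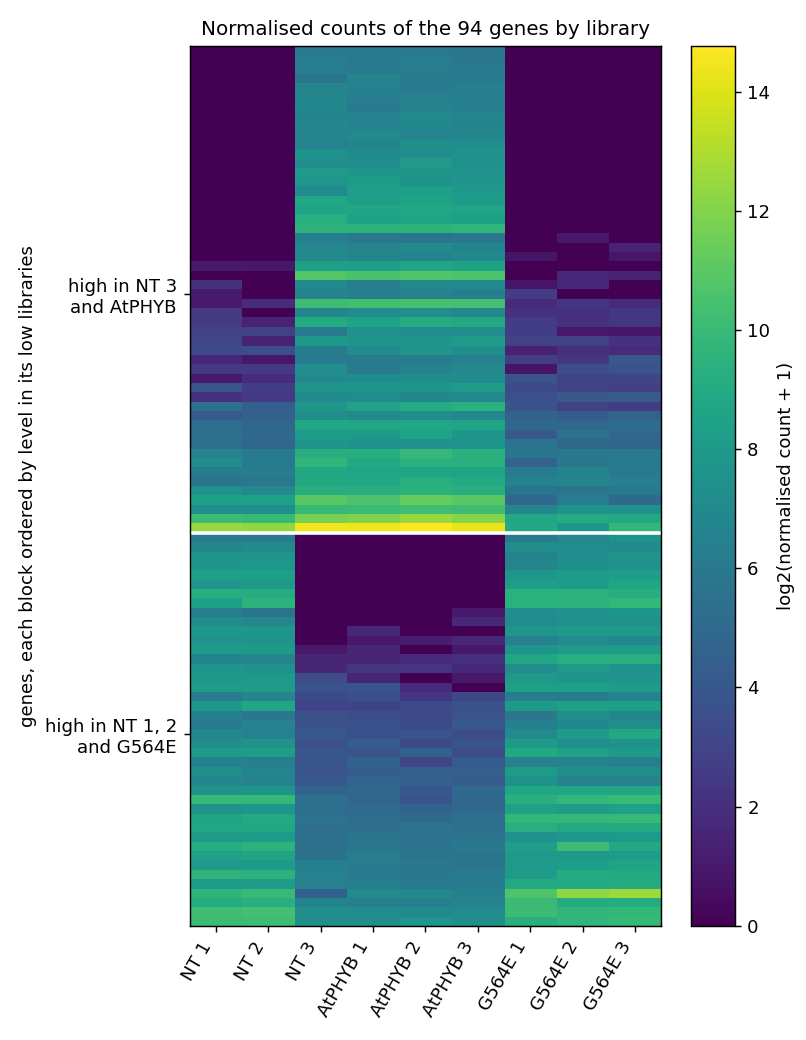
Rows are the 94 genes, columns the 9 libraries, and colour is log2(normalised count + 1). The 52 genes of the upper block are bright in NT 3 and the AtPHYB libraries, the 42 of the lower block in NT 1, NT 2 and the G564E libraries, and in each block the dark cells at the top are genes with no read on the low side.

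A large share of the genes was off, rather than lower, on one side. Of the 52 genes high on the AtPHYB side, 20 had no read in any of the 5 other libraries, and a further 10 stayed under 5 normalised counts in each of them. Of the 42 genes high on the G564E side, 8 had no read in any of the 4 other libraries and 7 stayed under 5 normalised counts. The remaining 22 and 27 genes were reduced but still detected.

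Among the 20 silent genes of the AtPHYB side, Bra009762 and Bra018107 had the highest minimum over the 4 high libraries. Bra009762 had 738 normalised counts in NT replicate 3 and 708, 755 and 860.4 in AtPHYB replicates 1, 2 and 3, with no read in NT replicates 1 and 2 or in G564E. Against a floor of 3 reads over the 5 silent libraries, it was at least 1380-fold higher. Bra018107 had 399.5 in NT replicate 3 and 426, 455 and 400.0 in AtPHYB, again with no read elsewhere, and was at least 755-fold higher. NT replicate 3 was thus within or at the edge of the AtPHYB values at both genes, while its fellow NT replicates had nothing. Over the 20 silent genes these lower bounds ran from 113-fold to 1380-fold, with a median of 214, and cover counting error only.

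In the opposite direction, Bra040268 and Bra034221 had the highest minimum among the 8 silent genes. Bra040268 had 584 and 557 normalised counts in NT replicates 1 and 2 and 696, 717 and 591 in G564E, with no read in NT replicate 3 or in AtPHYB, and was at least 788-fold higher. Bra034221 had 339 and 753 in NT replicates 1 and 2 and 682, 757 and 874 in G564E, and was at least 868-fold higher than in the 4 libraries without a read. NT replicate 1 had the lowest non-zero value of Bra034221, and the other high libraries lay between 682 and 874. For the 8 silent genes the bounds ran from 125-fold to 868-fold, with a median of 294. At 7 more genes, 4 high on the AtPHYB side and 3 on the G564E side, 1 to 3 reads were counted on the low side, and no ratio is given for them.

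**Figure D2:**
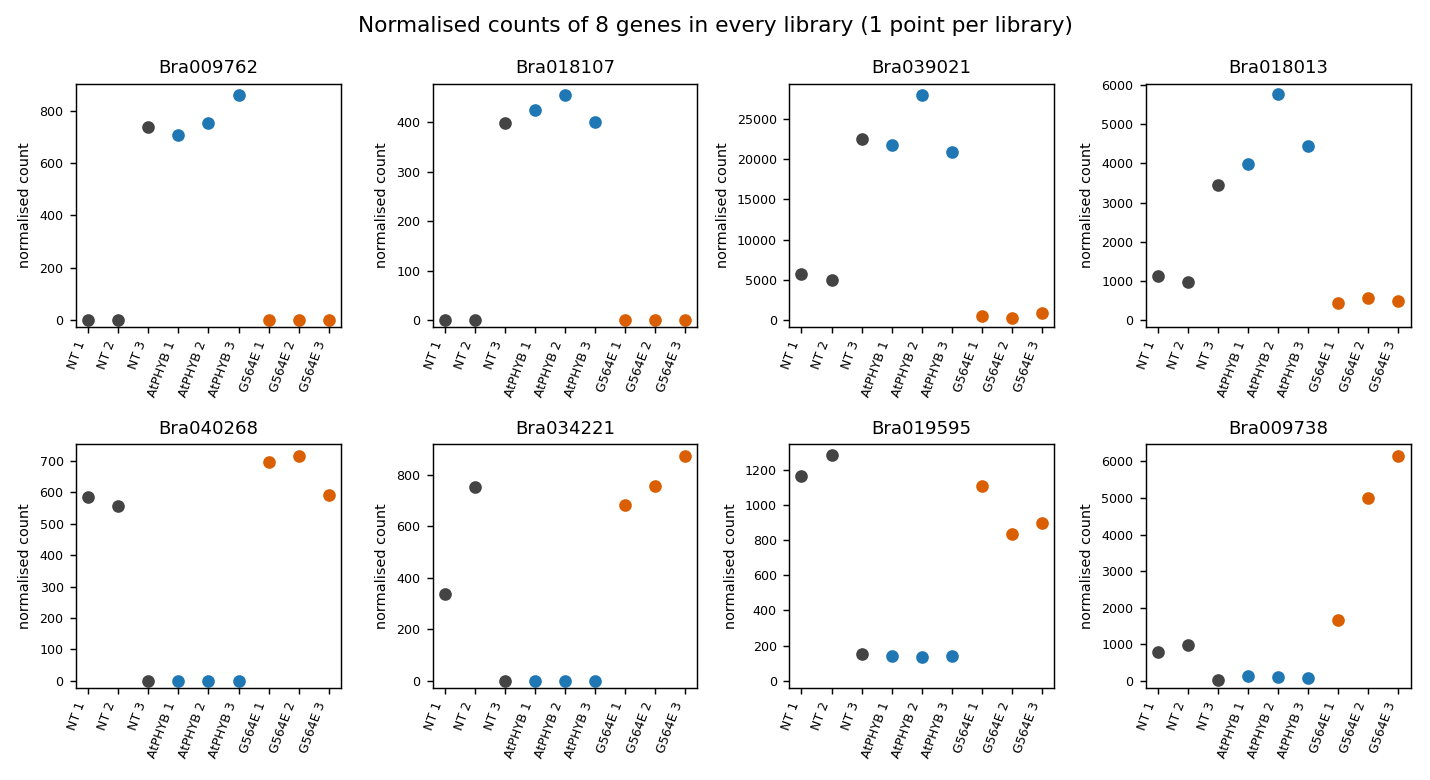
Each point is the normalised count of 1 library, for the 2 silent genes and the 2 genes of any kind with the highest minimum in each direction; black is NT, blue AtPHYB and orange G564E. In every panel NT 3 lies on the side of the blue points, at Bra009738 below all of them, and NT 1 and NT 2 lie on the side of the orange points.

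Among the genes detected on both sides, several showed 3 levels rather than 2, and where reads allowed the ratio itself could be given. With pooled normalised counts (summed reads over summed size factors) the ratio between the sides had a median of 13.2 over the 28 genes high on the AtPHYB side with more than 3 reads on the low side, and ranged from 5.52 to 2215. On the G564E side the median was 12.1 over 31 genes, with a range of 4.43 to 235. Bra013316 gave the ratio of 2215: it had 1824 normalised counts in NT replicate 3 and 1478 to 1712 in AtPHYB, against 4 reads in all over the other 5 libraries.

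Bra039021 was the most abundant of the 94, ranking 72 among all IDs by its mean on the AtPHYB side and 1036 on the G564E side. It had 22504 normalised counts in NT replicate 3 and 21693, 27986 and 20842 in AtPHYB. NT replicates 1 and 2 had 5681 and 5019.6, and the G564E libraries 483, 221 and 879. NT replicates 1 and 2 therefore lay between the transgenic genotypes at this gene and did not overlap either. Bra018013, the next in abundance, had the same order, with 3454 in NT replicate 3, 3979, 5767 and 4441 in AtPHYB, 1122 and 966 in NT replicates 1 and 2, and 444, 561 and 486 in G564E.

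Among genes high on the G564E side, Bra019595 and Bra009738 had the highest minimum. Bra019595 had 1164 and 1286 normalised counts in NT replicates 1 and 2 and 1108, 836 and 896 in G564E, against 151 in NT replicate 3 and 144, 136 and 143 in AtPHYB. The low libraries of Bra019595 differed from one another by little. Bra009738 was uneven within both sides: it had 1659, 4997 and 6159.7 in G564E and 783 and 986 in NT replicates 1 and 2, while NT replicate 3, at 22.7, was below AtPHYB with 133, 121 and 84.4.

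At the edge of the rule, the genes just inside the ratio of 3 were Bra018013 at 3.08 and Bra007019 at 3.28 on the AtPHYB side, and Bra015108 at 3.02 and Bra018029 at 3.05 on the G564E side. Just outside lay Bra019603 at 2.91 and Bra026144 at 2.88, and Bra001064 at 2.92 and Bra027699 at 2.84. For the floor of 50, Bra011044 entered with a lowest normalised count of 51.3 and Bra003897 with 51.2, and Bra010081 stayed out with 49.4 although it had no read in the 4 low libraries.

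Within the high side, the rule sets a lower limit for every library and no upper limit. It thus bounds the levels there in part, by leaving out genes with a low library on that side. The genes set beside them below were held to the floor but not to the ratio, so the shares are a description. For the 52 genes high on the AtPHYB side, NT replicate 3 divided by the AtPHYB mean had a median of 0.994 and quartiles of 0.874 and 1.16. NT replicate 3 lay inside the range of the 3 AtPHYB libraries at 18 of the 52 (34.6%), against 41.3% of the 19885 genes with at least 50 normalised counts throughout that side. It was more than 2-fold below the AtPHYB mean at 4 of the 52, more than 2-fold above it at 0, and 2.19% of the 19885 genes were that far away in either direction. These 4, named after their values were seen, were Bra021897 (ratio 0.429), Bra036028 (0.429), Bra038024 (0.470) and Bra038644 (0.448).

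For the 42 genes high on the G564E side, the mean of NT replicates 1 and 2 divided by the G564E mean had a median of 0.849 and quartiles of 0.660 and 1.14. Across the 19225 genes with at least 50 normalised counts throughout that side the median was 1.01. At 6 of the 42 NT was more than 2-fold below the G564E mean and at 0 more than 2-fold above; 13.5% of the 19225 genes were more than 2-fold away in either direction. The 6, again named after their values were seen, were Bra039051 (ratio 0.188), Bra009738 (0.207), Bra003897 (0.341), Bra013154 (0.348), Bra027743 (0.422) and Bra003186 (0.486). NT replicate 2 divided by NT replicate 1 had a median of 1.02 over the 42 genes, quartiles of 0.952 and 1.15, and a range of 0.660 to 2.23.

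The comparison of G564E with NT replicates 1 and 2 sets libraries of the same side against each other, and its direction was not fixed by the choice of genes. It was fitted without NT replicate 3 (edgeR quasi-likelihood test on 8 libraries, Benjamini-Hochberg adjusted p under 0.05 over 28656 genes). Of the 42 genes high on the G564E side, 7 were called, all higher in G564E, where 18.4% of all genes tested were called, 8.98% higher and 9.46% lower. The 7 of 42 became 13 without G564E replicate 1, 10 higher and 3 lower, where 36.3% of all genes were called. In limma-voom they became 8, 7 higher and 1 lower, where 17.8% were called. Leaving out NT replicate 1 or 2 as well leaves 1 NT library, and no count is given for those fits. Of the 52 genes high on the AtPHYB side, the 20 silent genes and the 10 under 5 normalised counts passed the filter on low counts through the AtPHYB libraries, so no count is drawn over the 52. Among the 22 still detected, 9 were called, 3 higher and 6 lower. The 22 were set apart by their highest level in the same libraries, which can favour genes that differ among them. No share of similarly chosen genes was set beside the 9, so this count is a description. With library size as the only scaling 9 of the 42 were called in place of 7, all higher in G564E. Of all genes, 5436 were then higher and 1725 lower. In the main fit the median log2 fold change of the 42 genes was 0.23, beside 0.03 for all genes. With library size as the only scaling these medians were 0.53 and 0.33.

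The gene with the lowest p among those higher in G564E was Bra039051, at 409, 609 and 636 normalised counts in G564E against 102 and 106 in NT replicates 1 and 2. Its log2 difference was 2.40 ± 0.24 (SE; edgeR adjusted p = 0.00145), while NT replicate 3 and AtPHYB stayed between 1.97 and 3.12. Next was Bra003186, at 891, 909 and 971 against 391 and 507, a log2 difference of 1.03 ± 0.16 (SE; edgeR adjusted p = 0.00602), which lost its call without NT replicate 1 (edgeR adjusted p = 0.0645).

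Lower in G564E than in NT replicates 1 and 2 were Bra004009 and Bra007019, both high on the AtPHYB side. Bra004009 had 31.4, 71.6 and 32.2 normalised counts in G564E against 318 and 347, a log2 difference of -2.91 ± 0.36 (SE; edgeR adjusted p = 0.00292). In NT replicate 3 it had 2025, and in AtPHYB 1572, 2465 and 2069, so its levels formed 3 steps without overlap. Bra007019 had 51.6, 52.9 and 62.7 in G564E against 190.1 and 123, a log2 difference of -1.49 ± 0.21 (SE; edgeR adjusted p = 0.00454), and 623 in NT replicate 3. Bra039021, described above, was lower by a log2 difference of -3.35 ± 0.49 (SE; edgeR adjusted p = 0.00526).

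**Figure D3:**
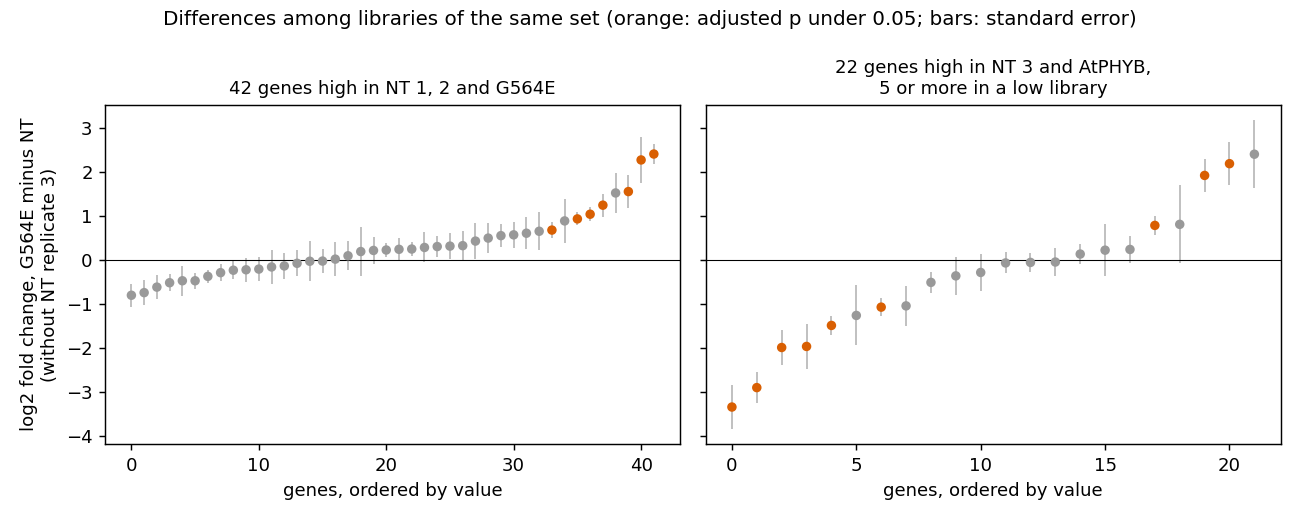
Points are log2 fold changes of G564E minus NT without NT replicate 3, 1 gene each, with bars of 1 standard error, and orange marks an adjusted p under 0.05. On the left all 7 called genes of the 42 lie above 0, and on the right the called genes among the 22 that were still detected on the low side lie on both sides of 0.

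The genotype comparisons of the study treat the NT replicates as 1 group, and the 94 genes were handled very differently by them. They share libraries with one another and with the choice of genes, so the counts below describe the genes and nothing is read from them. In AtPHYB minus NT, none of the 94 was called (edgeR, adjusted p under 0.05 over 27967 genes), where 0.19% of all genes were; 46 had an unadjusted p under 0.05. DESeq2 called 41 of the 94, where 3.46% of all genes were, and gave no adjusted p for 30. The 41 were 2 of the 52, higher in AtPHYB, and 39 of the 42, lower in AtPHYB. With limma-voom 0 were called, where 0.168% of all genes were. The lowest edgeR adjusted p among the 94 was 0.0921, for Bra010344. Without NT replicate 3, this comparison sets libraries of opposite sides against each other by construction. In that fit 93 of the 94 were called, where 2.73% of all genes were. These 93 were among 783 genes called in that fit.

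In G564E minus NT, 12 of the 94 were called, 3 higher and 9 lower, where 27% of all genes were, 13.8% higher and 13.2% lower (edgeR). With library size as the only scaling the split was 5 higher and 9 lower, and of all genes 7832 were higher and 2180 lower. The 12 became 25 without NT replicate 2, 7 without AtPHYB replicate 3, and 5 and 4 without G564E replicates 2 and 3, where 19.5%, 21.4%, 20.8% and 19.6% of all genes were called. In G564E minus AtPHYB, whose libraries lie on opposite sides by construction, 90 of the 94 were called, where 35% of all genes were. The other 4 were Bra003159, Bra024553, Bra025861 and Bra037269, with edgeR adjusted p between 0.0507 and 0.0733. The 90 dropped when any AtPHYB library was absent (53, 43 and 45 for replicates 1, 2 and 3) and when G564E replicate 2 (53) or 3 (52) was absent. The share of all genes called fell in the same fits, to 25.1%, 21.1%, 22.2%, 26.7% and 26.3%. Without G564E replicate 1 the 90 became 77, while the share of all genes called rose from 35% to 45.3%.

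Bra040268 and Bra009762 are given as examples only, because they were chosen for a split among the NT libraries. Why they were not called in AtPHYB minus NT was not tested. Bra040268 had no read in AtPHYB and 584, 557 and 0 normalised counts in NT replicates 1, 2 and 3, and was not called in AtPHYB minus NT (edgeR adjusted p = 0.201). For Bra009762 the log2 fold change of AtPHYB minus NT was 1.64 (edgeR adjusted p = 0.715), a mean over NT libraries of which 2 had no read.

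Every NT library was then placed at the genes that separate AtPHYB from G564E by the same floor and ratio, whichever way NT went. There were 615 such genes higher in AtPHYB and 475 higher in G564E; the 94 genes lie within them and fix part of any share over them, so they were left out, which left 563 and 433 genes. An NT library was on the high side when it had at least 50 normalised counts and 3 times the highest low library, and on the low side when 3 times its value did not exceed the lowest high library. At the 563 genes higher in AtPHYB, NT replicates 1, 2 and 3 were on the G564E side at 5.68%, 8.35% and 2.49%. At the 433 genes higher in G564E they were on the G564E side at 8.78%, 5.31% and 3.93%. Each NT library was on the AtPHYB side at 61.3% or more of the genes in either direction. Leaving out the 94 removes only genes of 1 pattern, so the differences between NT libraries that remain are a description.

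**Figure D4:**
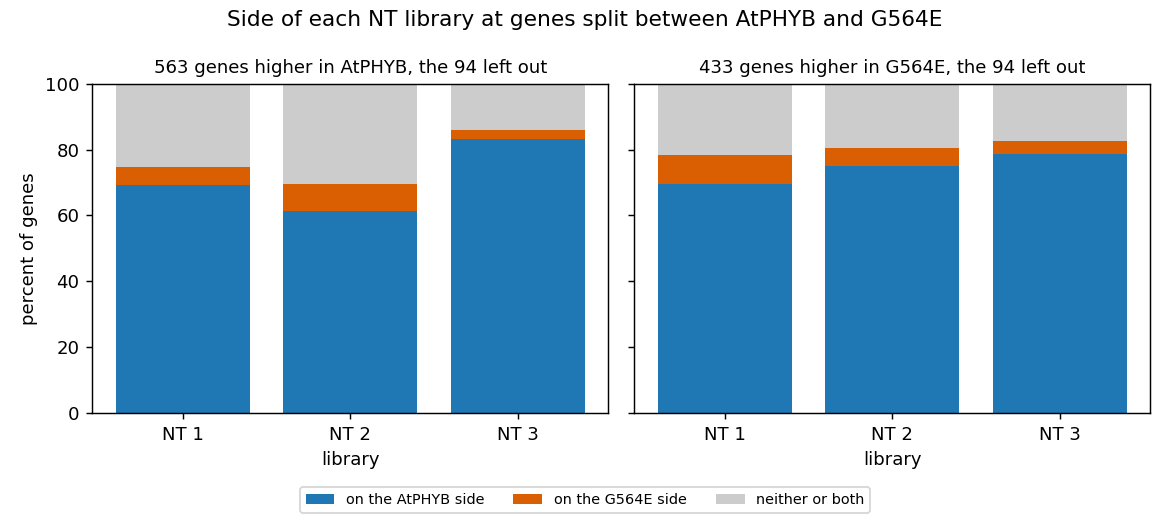
Bars are the percent of genes at which each NT library lay on the AtPHYB side (blue), the G564E side (orange) or neither or both (grey), for 563 genes higher in AtPHYB and 433 higher in G564E, without the 94. The orange part is 5.68%, 8.35% and 2.49% in NT 1, NT 2 and NT 3 on the left, and 8.78%, 5.31% and 3.93% on the right.

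The choice of genes made no use of the ID numbers. Of the 846 IDs within 5 numbers of one of the 94 other than themselves, 19 (2.25%) were also among the 94, where 0.229% of all IDs were. Counted as neighbours of each gene in turn, this was 34 of 937 (3.63%). Of the 17 pairs of the genes within 5 numbers, 15 went in the same direction, but 10 of the 17 came from 1 run of 5 consecutive IDs, and without that run it was 5 of 7. Within 50 numbers 41 of 62 pairs went in the same direction. What nearness in number means on the chromosomes could not be examined without coordinates, and neighbouring copies can share reads. In blocks of 1000 ID numbers, 31 of 42 blocks held at least 1 of the genes, and the 5 fullest held 37 of them.

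The longest run was Bra011145 to Bra011149, where 5 consecutive IDs were all high on the AtPHYB side. Bra011149 had 1186 normalised counts in NT replicate 3 and 1252, 1400.3 and 1311 in AtPHYB, against 1.09 and 2.70 in NT replicates 1 and 2 and 2.42 to 4.15 in G564E. Bra011146 had 548 in NT replicate 3 and 373 to 551 in AtPHYB, against 1.80 to 4.83 in the other 5 libraries. Both were therefore close to off on the low side, but the rest of the run was not. Bra011148 kept 28.8 to 38.2 in the low libraries against 400.0 to 467 in the high ones, Bra011147 kept 5.39 to 13.1 against 201 to 289, and Bra011145 kept 24.2 to 141 against 494 to 857.

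The other groups of near IDs were 7 pairs. Bra009718 with Bra009720 and Bra025860 with Bra025861 were silent on the G564E side, with 69.2 to 136 and 269.8 to 619 normalised counts on the AtPHYB side. Bra039017 with Bra039021 was also high on the AtPHYB side, and Bra013152 with Bra013154 and Bra036054 with Bra036055 on the G564E side. In the pairs Bra003186 with Bra003191 and Bra036805 with Bra036807 the members went in opposite directions. Bra036805 had 269.7 to 334 on the G564E side and 0 to 13.2 on the AtPHYB side, while Bra036807 had 16.1 to 46.7 and 227 to 364.

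IDs near these genes, though not among them, also separated the sides more often. Of 21928 other genes with a mean of at least 50 normalised counts, 16.3% had no overlap between the AtPHYB and G564E sides, whatever the size of the difference. Within 5 ID numbers of one of the 94 this was 127 of 423, or 30.0%, and within 50 numbers 716 of 3147, or 22.8%. Genes here are not independent of one another, and no test was made of this difference.

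**Figure D5:**
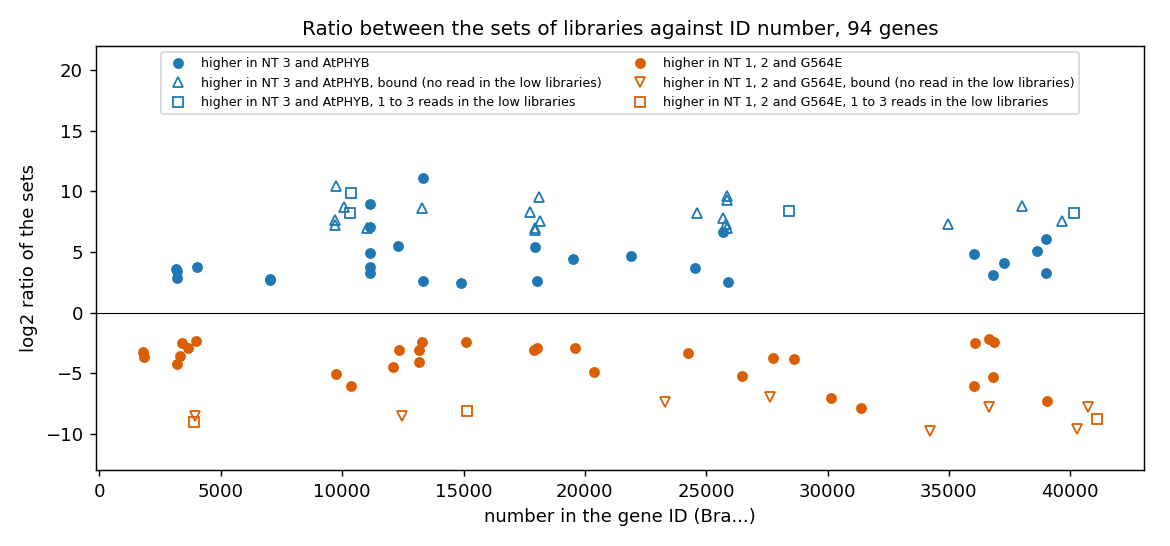
Each symbol is 1 of the 94 genes, at the number in its ID and the log2 ratio of pooled normalised counts between the sides, above 0 where the AtPHYB side is higher; open triangles are lower bounds of the ratio's size for genes with no read on the low side, and open squares rest on 1 to 3 reads. The stack near 11000 is the run of 5 consecutive IDs. Symbols of both directions occur from low to high numbers, but many stretches hold a single direction or no symbol.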

How the data were processed

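The authors deposited raw read counts per gene ID in a file for each library; all values are whole numbers. Per the submitters' processing notes, FastQC 0.11.8, Trimmomatic 0.39, TopHat2, HTSeq and edgeR were used; the sources used here do not give settings, genome build, annotation or strand option. Groups and replicate numbers came from the sample titles. Size factors were medians of ratios over the 27988 IDs above 0 in all 9 libraries.

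Tests used R 4.3.3 and edgeR 4.0.16 (filterByExpr, TMM, quasi-likelihood F-test with 1 mean for each genotype, 2-sided, Benjamini-Hochberg over all tested genes). The standard error is the log2 fold change over the square root of F. Alternatives used DESeq2 1.42.0 and limma 3.58.1 (limma-voom). On simulated data for G564E minus NT without NT replicate 3 (28015 genes) the test recovered 5% of 2-fold and 49% of 4-fold changes, with 4 false calls.

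The genes, comparisons and alternatives were chosen with earlier results of these data known. Named genes were, in each direction, the 2 with the largest ratio (silent genes first), the 2 with the highest minimum, the 2 nearest the ratio of 3 on each side, the groups of near IDs and the 2 with the lowest p without NT replicate 3; the 7 pairs of near IDs tied for second place and were all named. Bra013316, Bra010344, Bra039021 among the tests, the genes nearest the floor and the 4 genes not called in G564E minus AtPHYB were added after their values were seen.

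For AtPHYB and G564E libraries numbered 1, 2 and 3, the correlations of their deviations from their group means were 0.408, 0.309 and 0.119, so these numbers may pair them, though no label says what a number marks; with NT the correlations lay between -0.171 and 0.0847.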

Additional observations from a re-analysis of the deposited data

How the results depend on the processing

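The 94 genes became 177 with a ratio of 2, and stayed within 1.5 times under a floor of 25 (127) or 100 (65), a ratio of 5 (71), TMM scaling (95) and library size alone (96, of which 88 were among the 94). Leaving out a library can only loosen the rule, and gave 98 to 124 genes. For AtPHYB minus NT, leaving out single libraries gave 0 called, except 93 without NT replicate 3, where the sides are opposed by construction. DESeq2 called 41 and also called more genes in all (961 against 53). For G564E minus NT the 12 became 2 at an adjusted p under 0.01 and 22 in DESeq2, where 11.3% and 33.9% of all genes were called. Dropping 1 library at a time gave 4 to 25, where 19.6% and 19.5% of all genes were called. For G564E minus AtPHYB the 90 became 32 at an adjusted p under 0.01, where 16.7% of all genes were called. Dropping 1 library at a time gave 43 to 94, where 21.1% and 34.2% of all genes were called. With the replicate block 91 were called, where 32.3% of all genes were. For G564E minus NT without NT replicate 3, the 16 became 6 at an adjusted p under 0.01 and 4 to 24 with 1 more library left out. With the replicate block it was 3 of the 42, where 9.62% of all genes were called. The libraries of a block share only a number. The block gave 0 of the 94 for AtPHYB minus NT and 8 for G564E minus NT, where 0.0608% and 23.8% of all genes were called. Scaling by library size in G564E minus NT without NT replicate 3 shifted the all-gene median from 0.03 to 0.33 (log2). It called 9 of the 42, where 25% of all genes were called. The main fit of this comparison called 16 genes, 7 of the 42 and 9 of the 22 still detected. The 16 genes kept their direction in all 240 refits and lost their call in 62; Bra004009, Bra007019, Bra039021 and Bra039051 kept it in each. The share of the distinct IDs near one of the genes that were themselves among the 94 was 4.21% within 2 numbers, 1.63% within 10 and, added after seeing the data, 0.902% within 50; counted as neighbours of each gene in turn it was 6.4%, 2.24% and 1.33%. TMM scaling left the level ratios within a side at their values within the spread between genes. The causes of these changes were not tested, except where fewer samples or a stricter threshold enter by construction. At 15262884 counts or more per library, a gene with no read over 4 or 5 libraries is silent only to within counting error.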
